A study of Mus musculus with 24 samples.

Results

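Thy1, Cdh1, Epcam, Cd9, Cd24a, Mcam and Ncam1 encode cell surface proteins that have been used to sort or enrich spermatogonia. They were taken by gene symbol, from a list drawn up with earlier results of these data known and not by a threshold on their values. All 7 were found in both deposited expression tables, where the Zbtb16 table lists 23177 genes and that of Sox3 lists 21688, and all 7 passed the filter on low values in both. RNA was sequenced from spermatogonia (SPG) of male C57BL/6J-background mice at postnatal day 7, sorted with magnetic beads against THY1 for undifferentiated spermatogonia (uSPG) or against KIT for differentiating spermatogonia (dSPG). The 24 libraries formed 8 groups of 3.

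The Zbtb16 set compared mice homozygous for the luxoid allele (Zbtb16 lu/lu, labelled null) with controls labelled WT. The study's methods name both wild-type and heterozygous littermates as controls for the null mice. The Sox3 set compared mice with a conditional knockout (cKO) of floxed Sox3, deleted by Cre recombinase driven by Ddx4 in the germ line, with WT littermates. Ddx4-Cre acts in germ cells, and other testis cells keep Sox3. Testes of 3 mice were pooled for each isolation, and a library is therefore a pool and not a single animal. The study describes its RNA-seq replicates as independent biological ones, and p-values measure the spread between these pools.

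Sorting enriches a cell type by a protein on its surface, and the RNA for that protein can be compared with what the antibody selected. THY1 is a glycolipid-anchored immunoglobulin-family protein of undifferentiated spermatogonia that also marks T cells and some stromal cells. CDH1 (E-cadherin) joins neighbouring cells through catenins, EPCAM is an epithelial adhesion protein, CD9 is a tetraspanin that organises other membrane proteins, CD24A is a small glycolipid-anchored sialoprotein, and MCAM and NCAM1 are immunoglobulin-family adhesion proteins. NCAM1 can carry long polysialic acid chains, which the enzymes ST8SIA2 and ST8SIA4 add.

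Positions are those of GRCm38. Thy1 (chr9:44043384-44048579, plus strand), Mcam (chr9:44134469-44142727, plus strand) and Ncam1 (chr9:49502136-49798925, minus strand) lie on the chromosome that carries Zbtb16 (chr9:48654297-48836222, minus strand). Cdh1 is at chr8:106603351-106670246 and Epcam at chr17:87635979-87651129, both on the plus strand. Cd9 is at chr6:125460266-125494791 on the minus strand and Cd24a at chr10:43578284-43584265 on the plus strand. All 7 genes are annotated as protein coding. Cd9, Mcam and Ncam1 overlap annotated genes on the opposite strand, and as the sources do not say whether counting used strand, reads of these pairs cannot be told apart. The alignment could place a read at many positions, so values of genes with near-identical copies are uncertain.

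RefSeq promoter windows (GRCm38.p6, 250 bases before the start and 50 after) were held for 3 of the 7, Cd9, Mcam and Epcam. They are shown because Cd9 and Mcam RNA differed between the sorted fractions while Epcam RNA did not pass the test there. Each sequence below is read 5′ to 3′ on the strand of its gene and ends before the annotated gene begins. Capitals mark GGGCGG (the core of a GC box), TATAAA (the core of a TATA box) or CAGGTG (an E-box) on either strand. The Cd9 stretch is chr6:125494792-125495010 on the minus strand, the Mcam stretch chr9:44134408-44134468 on the plus strand and the Epcam stretch chr17:87635729-87635978 on the plus strand.
Cd9: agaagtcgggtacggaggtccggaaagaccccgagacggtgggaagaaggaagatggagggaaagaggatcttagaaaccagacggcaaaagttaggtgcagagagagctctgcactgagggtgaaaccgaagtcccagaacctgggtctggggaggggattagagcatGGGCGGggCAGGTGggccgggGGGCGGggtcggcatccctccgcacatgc
Mcam: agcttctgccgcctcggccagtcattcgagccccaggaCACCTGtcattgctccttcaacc
Epcam: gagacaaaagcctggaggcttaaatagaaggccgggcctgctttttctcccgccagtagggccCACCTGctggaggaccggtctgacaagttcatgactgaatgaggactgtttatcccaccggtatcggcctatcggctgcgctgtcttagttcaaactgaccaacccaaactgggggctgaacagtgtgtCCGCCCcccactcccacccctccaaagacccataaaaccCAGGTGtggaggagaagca

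Over the whole windows of 300 bases, GGGCGG was found 2 times for Cd9, 5 times for Mcam and 1 time for Epcam. The same motif was in 35.7% of the 32851 promoters of the table. CAGGTG was found 1 time for Cd9, 1 time for Mcam and 2 times for Epcam, against 20.2% of all promoters with at least 1 match. TATAAA was in 13.6% of all promoters and in none of these 3 windows. GC content was 61.3% for Cd9, 72.7% for Mcam and 57.0% for Epcam, beside a median of 52.7% over all promoters. The 3 windows thus shared a GC box and an E-box sequence, which describes these letters and not binding.

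Values are FPKM, which scales the reads of a gene to its length and to the depth of the library, so that levels of different genes can be set side by side. Estimated depth was 25.92 to 35.15 M reads in the Zbtb16 set. In the Sox3 set it was 28.25 to 31.86 M reads for the 4 libraries of replicate 1 and 10.98 to 14.85 M reads for the 8 of replicates 2 and 3. Zbtb16 was at 42.0 to 58.7 FPKM in WT THY1+ uSPG and 15.6 to 18.2 FPKM in null THY1+ uSPG. Sox3 was at most 0.0820 FPKM in the cKO libraries, against at least 6.28 FPKM in the WT libraries of that set.

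Before any comparison, the sorted proteins' own RNA was checked against the labels. Thy1 was at 3.29, 4.41 and 4.14 FPKM in the 3 WT THY1+ libraries of the Zbtb16 set and 0.344, 0.524 and 0.156 FPKM in the WT KIT+ libraries. Kit, which encodes the receptor used for the other sort, was at 13.8, 21.1 and 14.6 FPKM in the former and 55.0, 69.7 and 52.5 FPKM in the latter. Each gene was higher in every library sorted for its own protein.

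The WT libraries of the Sox3 set went against their labels. Thy1 was at 0.253, 0.254 and 0.213 FPKM in those labelled THY1+ and 3.84, 3.59 and 4.06 FPKM in those labelled KIT+. Kit was at 48.2, 45.6 and 80.1 FPKM in those labelled THY1+ and 12.97, 14.04 and 18.8 FPKM in those labelled KIT+. All 6 libraries were therefore on the other side from their labels for both genes, while all 6 cKO libraries were on the side of theirs, with Thy1 at 5.002, 3.61 and 5.26 FPKM in cKO THY1+ uSPG and 0.286, 0.244 and 0.292 FPKM in cKO KIT+ dSPG. The libraries were kept in their labelled groups and are called labelled THY1+ and labelled KIT+ here. No direction within a labelled fraction of the Sox3 set is free of this conflict.

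**Figure D1:**
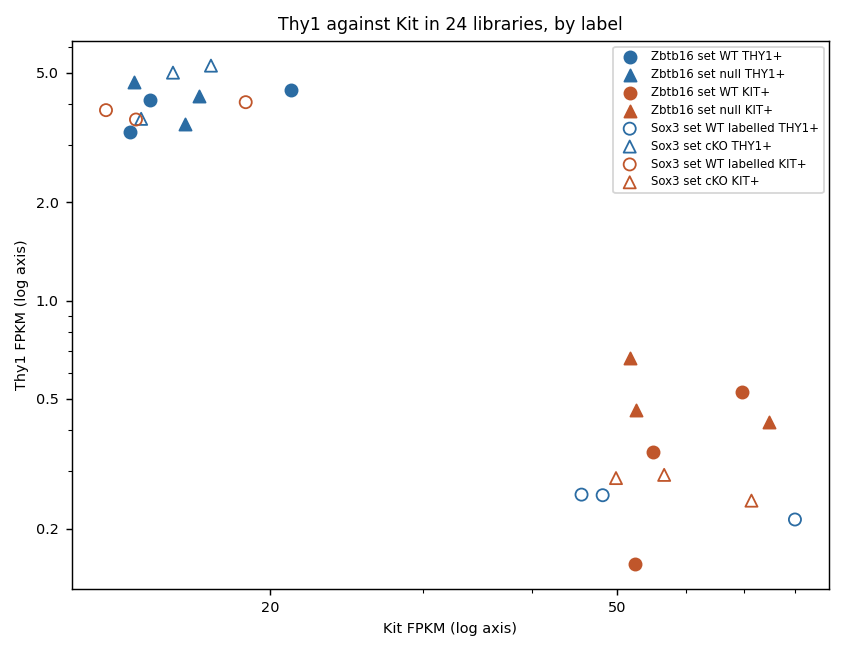
Thy1 FPKM (vertical log axis) against Kit FPKM (horizontal log axis) in each of the 24 libraries, with colour for the labelled fraction, filled symbols for the Zbtb16 set, open symbols for the Sox3 set, circles for WT and triangles for mutants. The 3 open circles of WT labelled THY1+ sit with the KIT+ libraries, with Thy1 at or under 0.254 FPKM, and the 3 of WT labelled KIT+ sit with the THY1+ libraries.

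The low Thy1 values rest on few reads. In WT KIT+ dSPG of the Zbtb16 set they correspond to 17, 32 and 8 reads, in null KIT+ dSPG to 30, 22 and 24, in cKO KIT+ dSPG to 14, 5 and 6, and in WT labelled THY1+ to 14, 6 and 5. The exact 95% Poisson interval of the WT KIT+ library with 8 reads ran from 0.0674 to 0.308 FPKM, below the lowest THY1+ value. The reads are estimates, and these intervals cover counting error only. Values of this gene in KIT+ libraries are therefore imprecise.

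The members covered a wide range of levels in WT THY1+ uSPG of the Zbtb16 set. Mcam was highest at 119 ± 12.9 FPKM (mean ± SD, n = 3), followed by Epcam at 34.8 ± 3.25, Cd9 at 30.7 ± 3.39 and Cd24a at 14.7 ± 2.91 FPKM. Cdh1 was at 5.34 ± 1.35, Thy1 at 3.95 ± 0.584 and Ncam1 at 3.24 ± 0.186 FPKM. The ranges of Epcam and Cd9, of Cdh1 and Thy1, and of Thy1 and Ncam1 overlapped, while the other neighbours in this order did not overlap. Thy1, the sorted protein's own gene, was thus among the lowest of the 7 in the fraction it defines.

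The order was different in WT KIT+ dSPG. Cd24a was at 53.9 ± 12.1 FPKM and Mcam at 50.3 ± 7.61 FPKM, with overlapping ranges. Epcam at 37.8 ± 3.38, Cd9 at 17.5 ± 1.63, Ncam1 at 1.85 ± 0.308, Cdh1 at 1.24 ± 0.277 and Thy1 at 0.341 ± 0.184 FPKM followed, each below the range of the one before it.

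**Figure D2:**
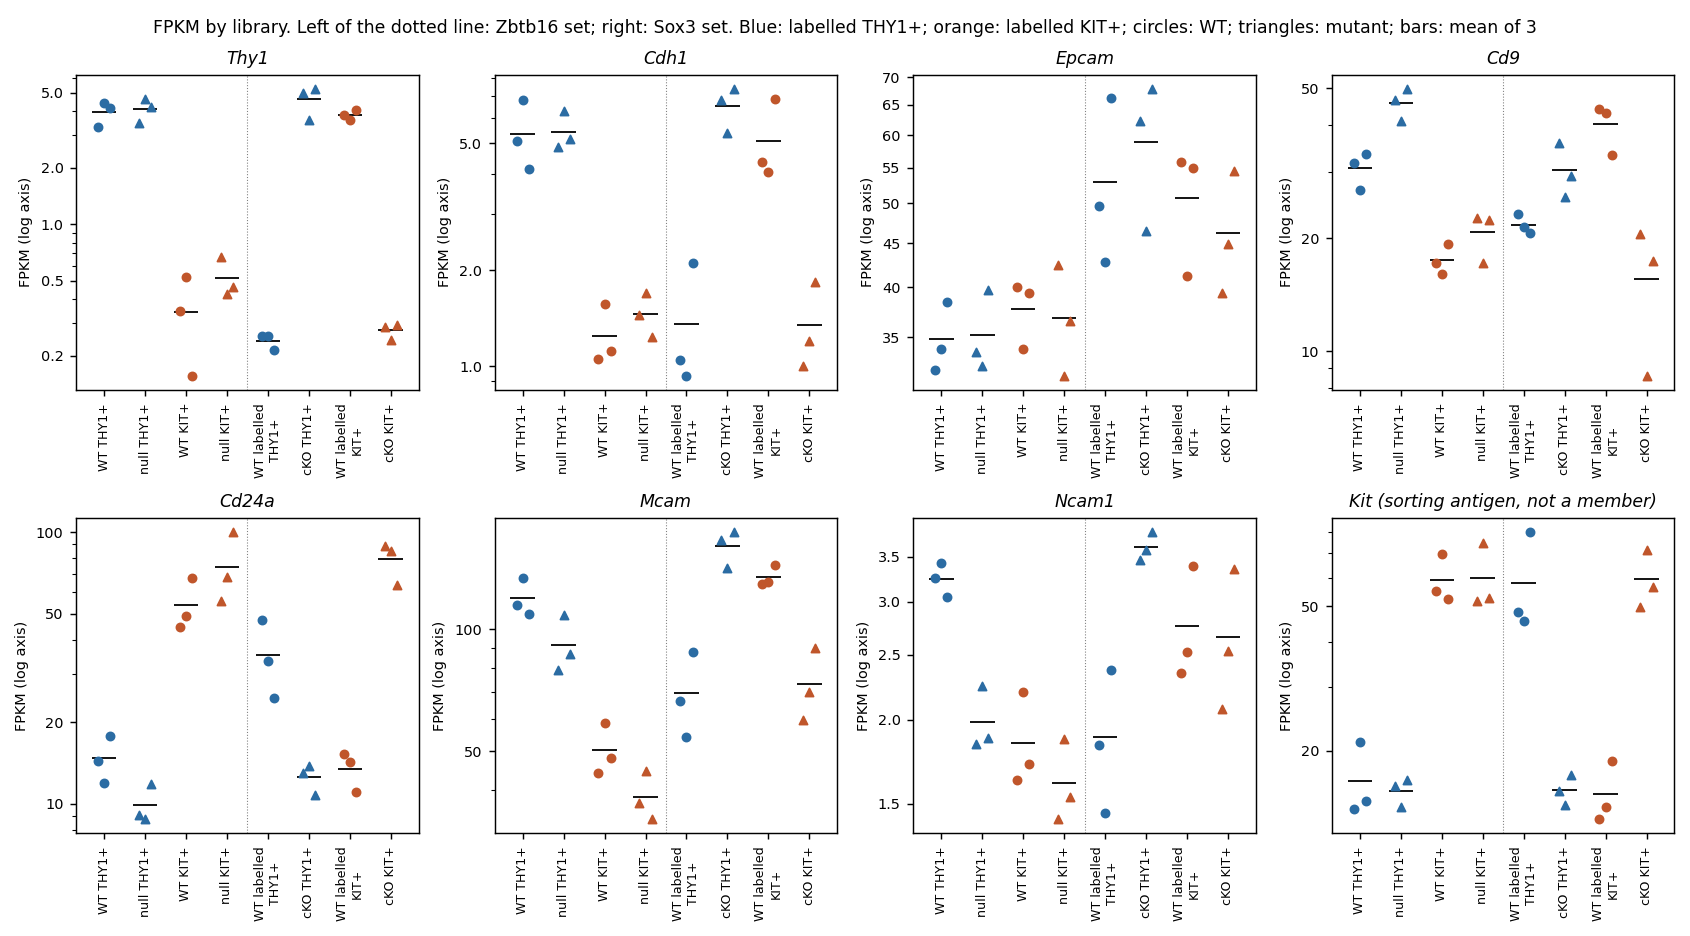
FPKM (log axis) of the 7 members, and of Kit for comparison, in each library, with groups on the horizontal axis, colour for the labelled fraction, circles for WT, triangles for mutants and a bar for the mean of 3 libraries. Cd24a was at 44.8 FPKM or more in every KIT+ library of the Zbtb16 set and at 17.8 FPKM or less in every THY1+ library, whereas Epcam stayed between 31.6 and 42.5 FPKM in all 12.

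What the sort separates was addressed by KIT+ against THY1+ in WT mice of the Zbtb16 set. A call is an adjusted p of at most 0.05 in limma, with Benjamini-Hochberg adjustment over all genes tested, together with a change of at least 1.5-fold. Of the 7 members 5 fell and 1 rose in KIT+ dSPG, and Epcam was not a call. Among all 22374 genes tested, 21.2% were calls in either direction. The median log2 change of the members was -0.80, beside -0.03 over all genes. Members are not replicates of a condition, and in sorted bulk samples fewer cells of a type and less RNA per cell cannot be told apart.

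Thy1 fell most, with a log2 change of -3.28 (SE 0.29, adjusted p 1.16e-05 in limma). THY1 is the protein this sort selected on, so its RNA is no independent measure of the fractions. With a pseudocount of 1 in place of 0.1 this became -1.89. Cdh1 was at 5.08, 6.80 and 4.14 FPKM in THY1+ uSPG and 1.05, 1.56 and 1.12 FPKM in KIT+ dSPG. The groups were far apart, and the log2 change was -2.01 (SE 0.21, adjusted p 4.31e-05 in limma).

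Mcam was at 115, 134 and 109 FPKM in THY1+ uSPG and 44.1, 58.8 and 48.1 FPKM in KIT+ dSPG. Every THY1+ library was above every KIT+ library, with a log2 change of -1.25 (SE 0.15, adjusted p 0.000119 in limma). Cd9 was at 31.7, 26.9 and 33.4 FPKM in THY1+ uSPG and 17.2, 16.1 and 19.3 FPKM in KIT+ dSPG. Its groups did not overlap either, and it fell by 0.80 on the log2 scale (SE 0.13, adjusted p 0.000954 in limma).

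Ncam1 was at 3.25, 3.42 and 3.05 FPKM in THY1+ uSPG and 1.63, 2.20 and 1.72 FPKM in KIT+ dSPG. The lowest THY1+ library was above the highest KIT+ library, and Ncam1 fell by 0.79 on the log2 scale (SE 0.16, adjusted p 0.00373 in limma). With a pseudocount of 1 the change was -0.58, just under 1.5-fold, and no longer a call. RNA of this adhesion protein was low in both fractions.

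Cd24a moved the other way. It was at 14.3, 11.99 and 17.8 FPKM in THY1+ uSPG and 44.8, 49.3 and 67.7 FPKM in KIT+ dSPG. Every KIT+ library was above every THY1+ library, a rise of 1.86 on the log2 scale (SE 0.23, adjusted p 0.000131 in limma). Calls in this upward direction made up 7.21% of all genes tested, and downward calls 14%.

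Epcam was at 32.1, 34.0 and 38.4 FPKM in THY1+ uSPG and 40.1, 33.9 and 39.4 FPKM in KIT+ dSPG. The groups overlapped, with a log2 difference of 0.12 (95% interval -0.16 to 0.40, adjusted p 0.530 in limma). A p above the threshold does not show equal levels, but this interval stays under 1.5-fold in both directions.

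Null mice gave the same comparison in other libraries. In them 4 members fell and 1 rose in KIT+ dSPG, beside 29.2% of all genes called. Cd24a was at 9.14, 8.79 and 11.8 FPKM in null THY1+ uSPG and 55.6, 68.2 and 99.9 FPKM in null KIT+ dSPG, a log2 change of 2.87 (SE 0.23, adjusted p 5.19e-06 in limma). Cd24a was therefore 7.30-fold higher in the KIT+ fraction of null mice and 3.64-fold higher in that of WT mice.

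Thy1 fell by 2.78, Cdh1 fell by 1.83, Mcam fell by 1.24 and Cd9 fell by 1.15 on the log2 scale in null KIT+ dSPG, with adjusted p of at most 8.31e-05 in limma. Ncam1 was at 1.84, 2.24 and 1.88 FPKM in null THY1+ uSPG and 1.42, 1.87 and 1.54 FPKM in null KIT+ dSPG. These groups overlapped and the difference of -0.29 was not a call (adjusted p 0.176 in limma). Epcam differed by 0.06 (95% interval -0.22 to 0.34).

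The cKO libraries of the Sox3 set, which followed their labels, gave a further comparison of the fractions. Again 4 members fell and 1 rose in KIT+ dSPG, with 22.7% of 21212 genes called. Cd24a was at 13.1, 13.8 and 10.8 FPKM in cKO THY1+ uSPG and 88.9, 85.5 and 63.6 FPKM in cKO KIT+ dSPG, a log2 change of 2.64 (SE 0.22, adjusted p 5.75e-06 in limma). The fractions were again widely separated for this gene.

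Thy1 fell by 3.64, Cdh1 fell by 2.23 and Mcam fell by 1.15 on the log2 scale in cKO KIT+ dSPG, with adjusted p of at most 0.000697 in limma. Cd9 was at 35.9, 25.7 and 29.2 FPKM in cKO THY1+ uSPG and 20.6, 8.60 and 17.4 FPKM in cKO KIT+ dSPG, a fall of 1.04 (SE 0.26, adjusted p 0.0121 in limma). The KIT+ library of replicate 2 was the lowest of its table for Cd9, and without it the change was -0.66 and still a call.

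Ncam1 was at 3.46, 3.59 and 3.81 FPKM in cKO THY1+ uSPG and 2.08, 2.54 and 3.36 FPKM in cKO KIT+ dSPG. The ranges did not overlap, but the difference of -0.46 was not a call (adjusted p 0.145 in limma). Epcam was at 62.3, 46.5 and 67.8 FPKM and at 39.4, 44.9 and 54.5 FPKM in the same groups, which overlapped, with a log2 difference of -0.34 (95% interval -0.78 to 0.09). In WT, null and cKO mice alike, Thy1, Cdh1, Cd9 and Mcam were calls downward and Cd24a a call upward in KIT+ dSPG.

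In the WT libraries of the Sox3 set, taken as labelled, the same 5 genes were calls in the opposite direction. Of all genes 19.7% were called in either direction, 13.1% higher and 6.53% lower. From labelled THY1+ to labelled KIT+, Thy1 changed by 3.53, Cdh1 by 1.88, Mcam by 0.98, Cd9 by 0.87 and Cd24a by -1.34 on the log2 scale. Cdh1 was at 1.04, 0.932 and 2.10 FPKM in WT labelled THY1+ and 4.35, 4.044 and 6.86 FPKM in WT labelled KIT+. Cd24a was at 47.6, 33.6 and 24.5 FPKM in the former and 15.2, 14.2 and 11.03 FPKM in the latter. Neither gene's groups overlapped, and both lay on the side that the Thy1 and Kit values gave.

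Mcam was at 66.5, 54.0 and 87.7 FPKM in WT labelled THY1+ and 130, 131 and 144 FPKM in WT labelled KIT+. Cd9 was at 23.2, 21.4 and 20.6 FPKM and at 44.0, 43.0 and 33.4 FPKM in these groups. The Cd9 call (adjusted p 0.0307 in limma) was lost with replicates 2 and 3 alone (adjusted p 0.109), and without any 1 of WT labelled THY1+ replicates 1, 2 and 3 or WT labelled KIT+ replicates 1 and 2 (adjusted p 0.0576 to 0.0894).

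Ncam1 was at 1.83, 1.45 and 2.37 FPKM in WT labelled THY1+ and 2.35, 2.53 and 3.39 FPKM in WT labelled KIT+, a difference of 0.53 that was not a call (adjusted p 0.103 in limma) but became one without WT labelled THY1+ replicate 3 (0.71, adjusted p 0.0474). Epcam was at 49.7, 42.8 and 66.2 FPKM and at 55.8, 41.2 and 55.0 FPKM, a difference of -0.05. Epcam thus overlapped between the fractions in each genotype, whichever way the labels are read.

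**Figure D3:**
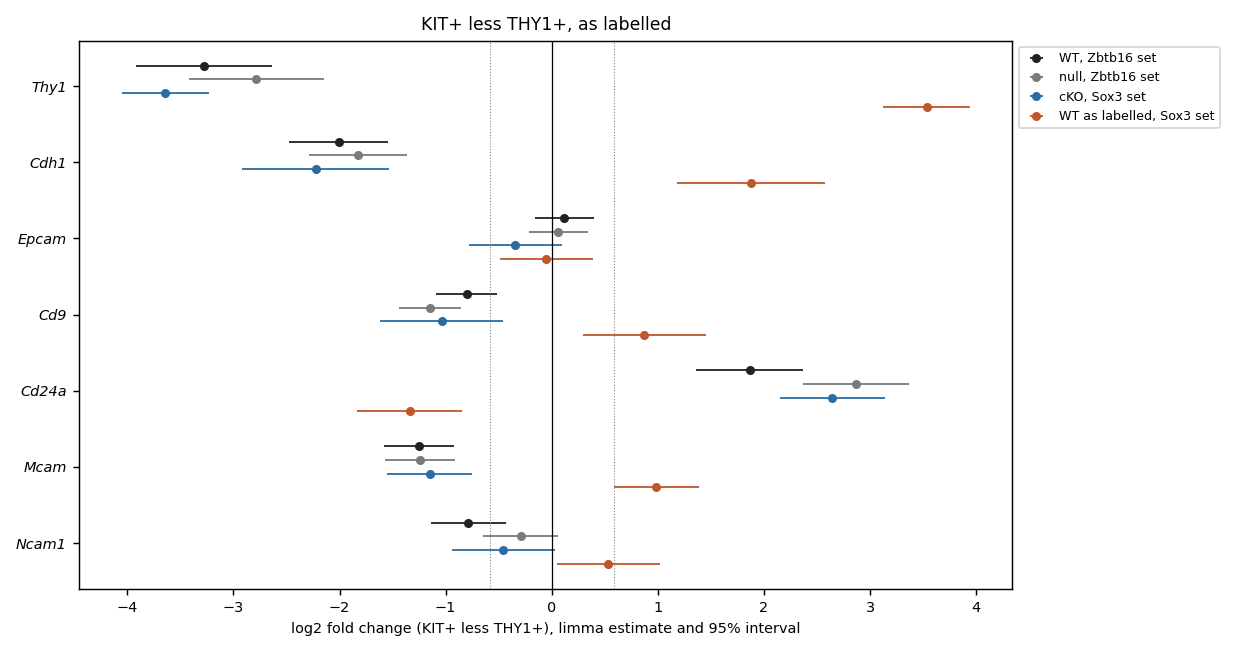
Log2 fold change of KIT+ less THY1+ for each member (points, limma estimates) with 95% intervals (lines) in WT and null of the Zbtb16 set and in cKO and WT as labelled of the Sox3 set, with dotted lines at 1.5-fold. Thy1 was between -3.64 and -2.78 in the first 3 and at 3.53 in WT as labelled, and Epcam lay between -0.34 and 0.12 in all 4.

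Markers of other cells moved with the fractions. Summed over 10 macrophage genes, FPKM was 838 to 960 in WT THY1+ uSPG and 6.18 to 7.98 in WT KIT+ dSPG of the Zbtb16 set, with 10 of 10 called lower. The sum of 9 T cell genes was 21.6 to 24.4 and 9.76 to 10.9 FPKM, with 7 of 9 called lower. Cd3e was at 0.747 and 0.576 FPKM and Cd3g at 6.15 and 0.0914 FPKM in these groups.

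Leydig cell genes, 7 of 7 called higher, summed to 83.1 to 119 FPKM in THY1+ uSPG and 1217 to 2272 FPKM in KIT+ dSPG. Sertoli cell genes summed to 35.3 to 59.7 and 93.4 to 151 FPKM, with 4 of 10 called higher and 1 lower, and peritubular and stromal genes to 459 to 662 and 212 to 415 FPKM, with 4 of 8 called lower. Endothelial genes summed to 23.5 to 31.2 and 16.8 to 31.5 FPKM, with 2 of 8 called lower. No gene of these lists was listed at 0 in all libraries of either group. THY1, MCAM and CD24A are also found on some of these cell types, and the part of other cells in the members' differences was not tested.

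Of the germ cell lists, 13 of 15 genes of undifferentiated spermatogonia were called lower in WT KIT+ dSPG. Of 9 genes of differentiating spermatogonia 7 were called higher and 1 lower, and of 8 genes of all germ cells 1 was called lower. The list of differentiating spermatogonia includes Ccnd2. In older testes the study found its protein in early uSPG and not in dSPG without ZBTB16, so Ccnd2 is no clear marker of that list. The germ cell genes summed to 1084 to 1327 FPKM in WT THY1+ uSPG and 1060 to 1393 FPKM in WT KIT+ dSPG. The labelled cell type was therefore measured in both fractions, with other cells beside it.

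Genes related to the members were compared from 3 lists. Of 8 other surface proteins used for positive sorting, 5 fell in WT KIT+ dSPG and 1 rose, with a list median of -1.11 on the log2 scale. Ret fell by 2.81 (adjusted p 4.80e-05) and Gfra1 fell by 2.60 (adjusted p 1.70e-05), which together encode the receptor for the growth factor GDNF. Tspan8, a tetraspanin like CD9, fell by 2.13 (adjusted p 3.33e-05), Itga6, an integrin subunit, fell by 1.35 (adjusted p 8.99e-05) and Epha2, an ephrin receptor, fell by 0.88 (adjusted p 0.0233). Kit rose by 1.85 (adjusted p 3.15e-05). Itgb1 at -0.04 and Adgra3 at 0.39 were not calls.

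All 7 surface proteins used to deplete other cells fell in WT KIT+ dSPG, with a list median of -2.09. Ptprc (CD45, on blood cells) fell by 5.47 (adjusted p 1.11e-06), H2-D1 fell by 3.36 (adjusted p 1.38e-05), Ly6a (SCA1) fell by 2.15 (adjusted p 0.000172) and B2m fell by 2.09 (adjusted p 3.60e-05). H2-K1 fell by 1.47, Cd34 fell by 1.01 and Itgav fell by 0.71. The genes meant to mark unwanted cells were thus higher in THY1+ uSPG, as the macrophage genes were.

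The partners of the members mostly did not pass. Of 12, 11 were tested, of which 1 rose and 1 fell. Cd81, a tetraspanin that binds CD9, rose by 0.81 (adjusted p 0.00518) while Cd9 fell. St8sia4, which adds polysialic acid to NCAM1, fell by 2.31 (adjusted p 7.23e-05). The catenins, which link CDH1 to the cytoskeleton, were not calls: Ctnna1 was at -0.05, Ctnnb1 at -0.11 and Ctnnd1 at -0.38, beside -2.01 for Cdh1.

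In null mice Cd81 rose by 1.82 (adjusted p 1.70e-05) and St8sia4 fell by 1.03 (adjusted p 0.00893) in KIT+ dSPG. In cKO mice Cd81 rose by 1.67 (adjusted p 3.16e-05) and St8sia4 fell by 0.72 (adjusted p 0.0493). Both partner genes thus had the same calls in the 3 genotypes whose Thy1 followed the labels. Of the surface proteins used for depletion, 4 of 7 fell in null mice and 4 of 7 in cKO mice, and of the positive sorting proteins 4 of 8 fell and 2 rose in null mice and 5 fell and 1 rose in cKO mice.

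Whether loss of ZBTB16 changed the members was addressed by null against WT within each fraction. In THY1+ uSPG 1 of 7 was a call, Ncam1, beside 3.98% of all genes. Both genotype comparisons share libraries with the comparisons of fractions. Calls upward made up 2.71% and calls downward 1.26% of all genes. The median log2 change of the members was 0.02, beside -0.03 over all genes.

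Ncam1 was at 3.25, 3.42 and 3.05 FPKM in WT and 1.84, 2.24 and 1.88 FPKM in null THY1+ uSPG. All null libraries were below all WT libraries, and Ncam1 fell by 0.68 on the log2 scale (SE 0.16, 95% interval -1.03 to -0.33, adjusted p 0.0341 in limma). The call was lost with a pseudocount of 1 (-0.51), in a fit of these groups alone (adjusted p 0.0522), and without any 1 of WT THY1+ replicates 1, 2 and 3, null THY1+ replicates 1 and 3 or WT KIT+ replicate 3 (adjusted p 0.0518 to 0.137). The direction held in each of these fits. Null uSPG thus had Ncam1 levels that overlapped those of WT KIT+ dSPG, at 1.63 to 2.20 FPKM.

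Cd9 was at 31.7, 26.9 and 33.4 FPKM in WT and 46.7, 41.0 and 49.9 FPKM in null THY1+ uSPG. All null libraries were above all WT libraries, a log2 difference of 0.58 (SE 0.13, 95% interval 0.29 to 0.87, adjusted p 0.0302 in limma). At 1.49-fold it lay just under the fold threshold and was not a call. It was one with median scaling (0.64), without WT THY1+ replicate 3 (0.64) and without null THY1+ replicate 2 (0.66).

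Mcam was at 79.5, 108 and 86.9 FPKM in null THY1+ uSPG, below the WT range of 109 to 134, with a log2 difference of -0.39 (adjusted p 0.152 in limma). Cd24a was at 9.14, 8.79 and 11.8 FPKM, below the WT range of 11.99 to 17.8, with a difference of -0.56 (adjusted p 0.170). For neither gene did the groups overlap, and neither passed the test. Groups without overlap were those of Cd9, higher in null uSPG, and of Ncam1, Mcam and Cd24a, lower in null uSPG. The share of all genes without overlap was not computed, so the number of such members is not a result about them.

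Thy1, Cdh1 and Epcam had intervals that included 0 in THY1+ uSPG. Thy1 was at 3.48, 4.67 and 4.23 FPKM in null uSPG, with a log2 difference of 0.06 (95% interval -0.58 to 0.70). Cdh1 was at 4.84, 6.28 and 5.13 FPKM, with a difference of 0.04 (95% interval -0.42 to 0.51). Epcam was at 33.6, 32.4 and 39.7 FPKM, with a difference of 0.02 (95% interval -0.26 to 0.29).

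In KIT+ dSPG none of the 7 was a call between null and WT in limma, beside 0.259% of all genes (0.067% lower). Mcam alone had an unadjusted p under 0.05 in limma, and the share of all genes under that threshold was not computed. Mcam was at 44.1, 58.8 and 48.1 FPKM in WT and 37.3, 44.5 and 33.9 FPKM in null KIT+ dSPG, with a log2 difference of -0.38 (95% interval -0.71 to -0.05, adjusted p 0.244). Mcam thus overlapped between genotypes in KIT+ dSPG by a narrow margin.

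Thy1 was at 0.666, 0.425 and 0.463 FPKM in null KIT+ dSPG, a log2 difference of 0.56 from WT (95% interval -0.08 to 1.197) at 8 to 32 reads a library. Cd24a, at 55.6, 68.2 and 99.9 FPKM, differed by 0.45 (95% interval -0.05 to 0.95). Cd9 was at 22.6, 17.2 and 22.4 FPKM (0.23), Cdh1 at 1.45, 1.69 and 1.24 FPKM (0.22), Epcam at 42.5, 31.6 and 36.6 FPKM (-0.04) and Ncam1 at 1.42, 1.87 and 1.54 FPKM (-0.19). All 7 overlapped between the genotypes.

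The interaction, null less WT in KIT+ dSPG minus the same difference in THY1+ uSPG, tested whether loss of ZBTB16 acted differently in the fractions. None of the 7 was a call in limma, beside 0.0313% of all genes (0.0268% lower). Cd24a had the largest value of the 7, 1.005 on the log2 scale (SE 0.32, 95% interval 0.29 to 1.71), with an unadjusted p of 0.00975 and an adjusted p of 0.124. No other member had an unadjusted p under 0.05, and the share of all genes under that threshold was not computed. Cd24a was lower in null than in WT in THY1+ uSPG and higher in KIT+ dSPG. That difference did not pass the correction in this fit, which had no replicate block. The loss of the Ncam1 call between fractions in null mice was not a tested difference either, since the interaction of Ncam1 was 0.50 (adjusted p 0.225).

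**Figure D4:**
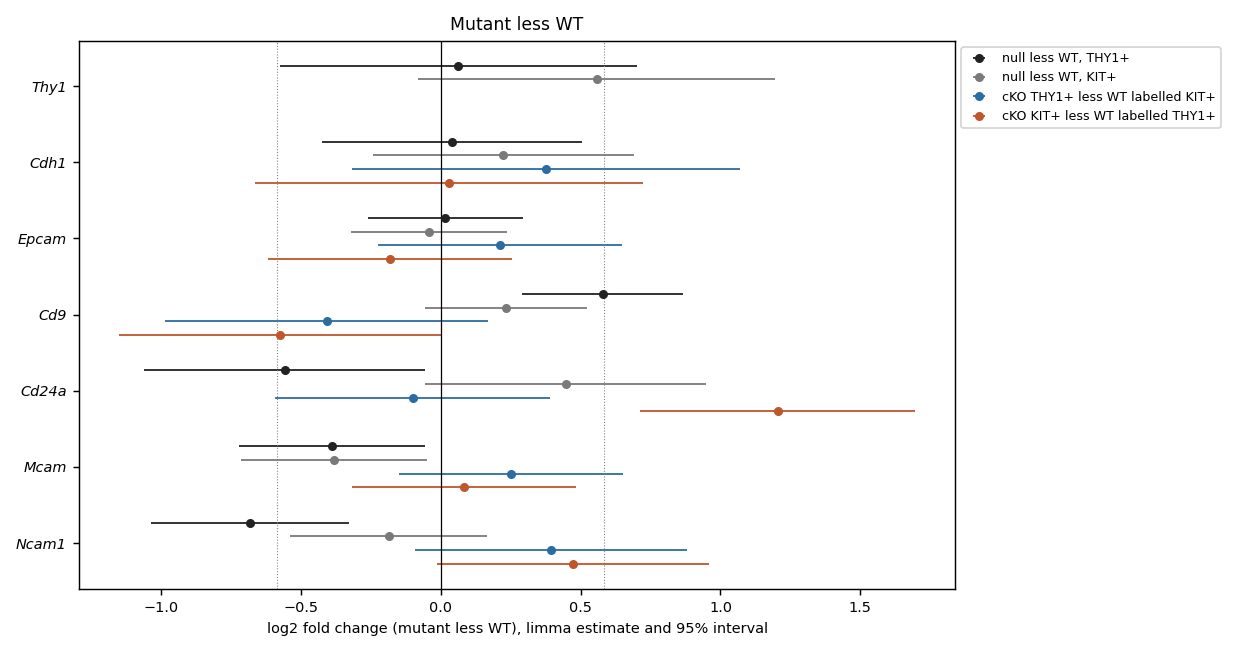
Log2 fold change of mutant less WT for each member (points, limma estimates) with 95% intervals (lines), for null in both fractions and for cKO against the WT group whose Thy1 and Kit levels were alike, with dotted lines at 1.5-fold. Thy1 is left out of the latter because it chose the pairs. Cd24a in cKO KIT+ against WT labelled THY1+ stands at 1.205, and Ncam1 and Cd9 in null THY1+ at -0.68 and 0.58.

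Markers of germ cells and of other cells were also compared between genotypes. In null THY1+ uSPG 4 of 15 genes of undifferentiated spermatogonia were called lower, and none of 9 genes of differentiating spermatogonia was a call. All 8 genes of all germ cells were higher there, with 1 called. In null KIT+ dSPG 1 of the 15 was called lower, with no calls in the other germ cell lists. Few markers of other cells were calls. In THY1+ uSPG the macrophage genes summed to 838 to 960 FPKM in WT and 389 to 751 FPKM in null libraries, with 1 of 10 called lower, and no gene of the list was at 0. The T cell genes summed to 21.6 to 24.4 and 19.9 to 20.3 FPKM, and the Leydig cell genes to 83.1 to 119 and 49.8 to 79.6 FPKM, with no calls. Peritubular and stromal genes summed to 459 to 662 FPKM in WT and 286 to 457 FPKM in null, with no calls. Sertoli cell genes summed to 35.3 to 59.7 and 25.5 to 36.7 FPKM, again with no calls. Of these sums in THY1+ uSPG only that of the Sertoli cell genes overlapped between the genotypes. Log2 differences were below 0 for 10 of 10 macrophage, 7 of 7 Leydig, 9 of 10 Sertoli, 7 of 8 peritubular and stromal and 6 of 9 T cell genes. In KIT+ dSPG the Sertoli cell genes summed to 93.4 to 151 FPKM in WT and 156 to 216 FPKM in null, without overlap, and the Leydig cell genes to 1217 to 2272 and 2047 to 3122 FPKM, with no calls in either list. In the interaction 7 of 7 Leydig and 9 of 10 Sertoli cell genes had values above 0, with list medians of 1.33 and 1.01 on the log2 scale. So had 7 of 8 peritubular and stromal genes (list median 1.35), 10 of 10 macrophage genes (0.79) and 7 of 8 endothelial genes (0.83). Of 9 T cell genes 4 were above 0 (list median -0.03). All 8 genes of all germ cells were below 0 (list median -0.61). No gene of these lists was a call in the interaction. Of the surface proteins used for depletion Ly6a fell by 1.67 (adjusted p 0.00711 in limma) in null THY1+ uSPG and was the single call of 7, with a list median of -0.65. Of 8 positive sorting proteins and 11 partners none was a call. What part other cells had in the values of Ncam1, Cd9, Mcam and Cd24a, the interaction of Cd24a included, was not tested.

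Ncam1, Mcam and Thy1 lie on chromosome 9 with Zbtb16. Ncam1 lies 0.666 Mb from it, Mcam 4.51 Mb and Thy1 4.61 Mb. Of 130 genes tested within 5 Mb of Zbtb16, 8.46% were calls in THY1+ uSPG, 7 higher and 4 lower, beside 4.51% of the 1064 genes further away on the chromosome. Within 1 Mb 5 of 16 were calls, Ncam1 lower and Htr3a, Nxpe4, Tmprss5 and Ttc12 higher. In KIT+ dSPG 1 of the 130 was a call. A segment around a mutated locus can differ in strain origin between mutants and controls, and that cannot be told apart here from an effect of ZBTB16. The median log2 change of the 130 genes in THY1+ uSPG was -0.15.

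**Figure D5:**
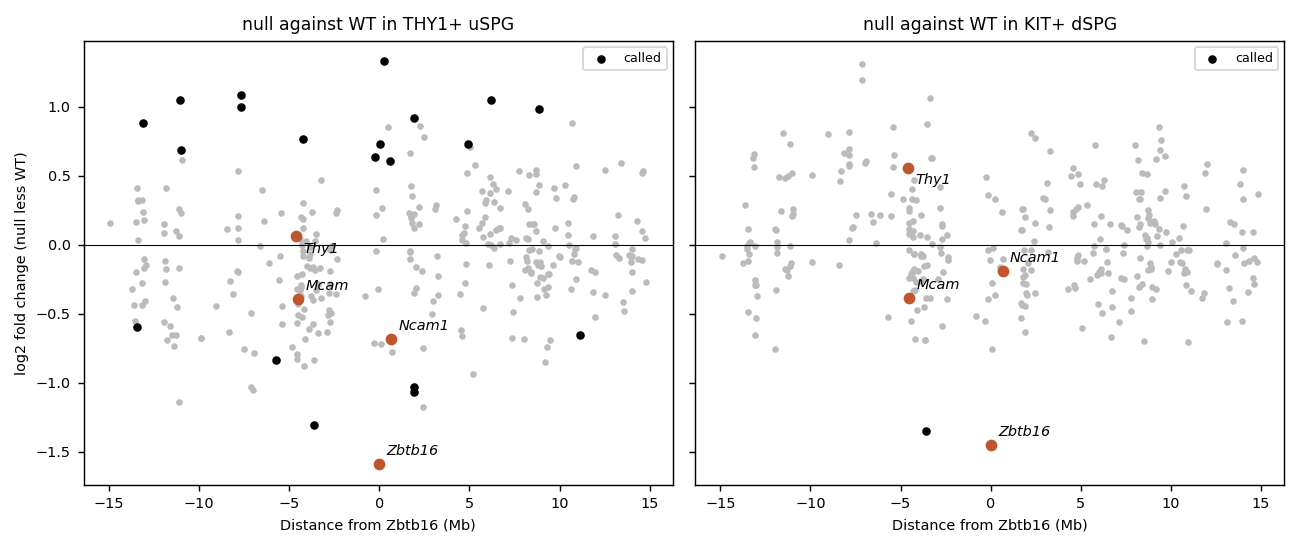
Log2 fold change of null less WT (vertical axis) against distance from Zbtb16 in Mb (horizontal axis) for genes of chromosome 9, in THY1+ uSPG (left) and KIT+ dSPG (right). Black points are calls and the named genes are in orange. Ncam1 is at -0.68 on the left and -0.19 on the right, and Thy1 at 0.06 and 0.56.

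Whether loss of SOX3 changed the members cannot be read within a labelled fraction, because the WT labels conflict with Thy1 and Kit. As labelled THY1+, cKO against WT gave calls for Thy1 (3.78), Cdh1 (2.25), Mcam (1.23), Ncam1 (0.93) and Cd24a (-1.44), beside 29.1% of all genes. As labelled KIT+ it gave calls for Thy1 (-3.40), Cdh1 (-1.85), Cd9 (-1.45), Mcam (-0.90) and Cd24a (2.54), beside 25.1% of all genes. All Sox3 comparisons draw on the same 12 libraries. These values are on the log2 scale, and adjusted p in limma was at most 0.00671. The large Thy1 values show that the comparison as labelled sets libraries with high Thy1 against libraries with low Thy1. With replicates 2 and 3 alone the calls of Ncam1 in the former (adjusted p 0.0503) and Mcam in the latter (adjusted p 0.0685) were lost.

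The genotype difference averaged over both fractions does not depend on which WT group is called which. None of the 7 was a call, beside 10.3% of all genes, of which calls upward were 7.49% and calls downward 2.83% of those tested. Cd24a, Cd9 and Ncam1 had an unadjusted p under 0.05 in limma. The share of all genes under that looser threshold was not computed, so it cannot be set beside the share of calls. Cd24a differed by 0.55 on the log2 scale (SE 0.16, 95% interval 0.21 to 0.90, adjusted p 0.0274 in limma), 1.47-fold, just under the fold threshold. It was a call with quantile normalization (0.61) and without any 1 of WT labelled THY1+ replicate 1, WT labelled KIT+ replicate 1, cKO THY1+ replicate 3 and cKO KIT+ replicate 3 (0.60 to 0.67). Of marker genes of other cells, 4 of 7 Leydig, 4 of 10 Sertoli, 3 of 8 endothelial and 2 of 8 peritubular and stromal genes were called higher. Macrophage and T cell genes had no calls. All 8 genes of all germ cells had values below 0, with 1 called lower. The part of other cells in the members' values was not tested.

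Cd9 differed by -0.49 in the averaged comparison (95% interval -0.90 to -0.08, adjusted p 0.0752 in limma) and Ncam1 by 0.43 (95% interval 0.09 to 0.78, adjusted p 0.0634). Without cKO KIT+ replicate 1 the Cd9 difference was -0.61 and a call. Thy1 (0.19), Cdh1 (0.20), Mcam (0.17) and Epcam (0.01) had intervals that included 0. Of the lists, 4 of 7 surface proteins used for depletion and 2 of 11 partners rose, among them St8sia2 by 1.03 (adjusted p 0.00447) and St8sia4 by 0.73 (adjusted p 0.0134), and 0 of 8 positive sorting proteins were calls.

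Groups with like Thy1 and Kit levels were also set side by side across the labels. These pairs were chosen by Thy1 and Kit, so the values of Thy1 are a description, and members that correlate with Thy1 are not independent of that choice. Between cKO THY1+ and WT labelled KIT+ none of the 7 was a call in limma, and 0.0707% of all genes were calls, 0.00471% higher and 0.066% lower. None of the 7 had an unadjusted p under 0.05 either, and the share of all genes under that threshold was not computed. Between cKO KIT+ and WT labelled THY1+ Cd24a was the single call of the 7, upward, beside 17% of all genes (12.4% called higher and 4.57% called lower).

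Cd24a was at 88.9, 85.5 and 63.6 FPKM in cKO KIT+ and 47.6, 33.6 and 24.5 FPKM in WT labelled THY1+. All cKO libraries were above all of these WT libraries, a log2 change of 1.205 (SE 0.22, 95% interval 0.71 to 1.70, adjusted p 0.00484 in limma). It was a call under every alternative setting and without each library in turn. In the THY1+-like pair Cd24a was at 13.1, 13.8 and 10.8 FPKM in cKO THY1+ and 15.2, 14.2 and 11.03 FPKM in WT labelled KIT+, a difference of -0.10 (95% interval -0.59 to 0.39).

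Other cells also differed between these groups. Leydig cell genes summed to 2499 to 4942 FPKM in cKO KIT+ and 1240 to 2005 FPKM in WT labelled THY1+, with 5 of 7 called higher. Sertoli cell genes summed to 210 to 317 and 111 to 139 FPKM, with 3 of 10 called higher, and endothelial genes to 44.3 to 73.6 and 27.0 to 34.1 FPKM, with 5 of 8 called higher. Peritubular and stromal genes summed to 483 to 598 and 205 to 336 FPKM, and macrophage genes to 8.33 to 9.09 and 6.75 to 7.32 FPKM. Genes of all germ cells summed to 813 to 1088 and 1408 to 1470 FPKM. Genes of undifferentiated spermatogonia summed to 106 to 150 and 152 to 212 FPKM. Genes of differentiating spermatogonia, a list that includes Ccnd2, summed to 203 to 262 and 347 to 444 FPKM, with 3 of 9 called lower. None of these sums overlapped between the groups, while T cell genes did. The part of these cells in the Cd24a difference was not tested.

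The members' patterns were compared over all 24 libraries by Pearson correlation of log2(FPKM + 0.1), centred within each table. The libraries share their sort and their tables, so these are descriptions. Thy1 and Cdh1 were alike (r = 0.957), as were Cdh1 and Mcam (0.952), Thy1 and Mcam (0.902) and Mcam and Ncam1 (0.847). Cd24a ran opposite to Thy1 (-0.903) and Cdh1 (-0.920), and Cd9 was closer to Thy1 (0.809) than to Ncam1 (0.235). Epcam was the member least like the others, with values from -0.171 to 0.213.

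Among 15870 genes with a mean of at least 1 FPKM in both tables, the 2 most like Thy1 were Epsti1 (0.985) and March1 (0.985). Those most like Cdh1 were Sort1 (0.991) and Tmem132c (0.984), and those most like Mcam were Ccnd2 (0.980) and Lhx1 (0.978). For Cd9 they were Tsr1 (0.970) and Psmd12 (0.965), for Cd24a Hibch (0.984) and Rmdn2 (0.983), and for Ncam1 Chrna4 (0.949) and Pkp4 (0.932). Epcam had no gene above 0.780, its nearest being 4933413G19Rik (0.780) and Rrp1b (0.779). The fraction means were not removed, so genes that differ between the fractions correlate with one another for that reason alone. The lower values of Epcam therefore restate its overlap between the fractions and are not a further trait of it.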

How the data were processed

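The 24 libraries were grouped by their GEO labels alone. Libraries were stranded and depleted of ribosomal RNA. Per the methods, the authors aligned reads to mm10 with Novoalign, allowing many positions for a read, generated FPKM with a tool not given in the sources used here, and tested differential expression with USeq and DESeq2. FPKM is the unit of the deposited values, and both tables were normalized separately. Tests were made within a table only.

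Here log2(FPKM + 0.1) was fitted in limma 3.58.1 (R 4.3.3, lmFit, then eBayes with trend and robust), with 4 group means over the 12 libraries of a table. Genes averaging 0.1 FPKM or more were tested, 22374 and 21212. Tests were two-sided, with Benjamini-Hochberg adjustment over all genes tested, and a call needs an adjusted p of at most 0.05 and at least 1.5-fold. The added 0.1 understates changes of low genes. The fit was tested on simulated data. Depth and the reads of Thy1 are estimates from the steps of low FPKM values, of which 58.5% to 81.2% a library lay within 0.05 of whole reads. The Thy1 values given as reads lay within 0.02. Their step was chosen to bring these same values close to whole reads, so that closeness is no independent check. It implies a Thy1 length of 1737 bases, beside 2995 annotated exon bases, and a greater length would give more reads.

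The members, the lists and the cross-label pairs were chosen with earlier results of these data known. Named by a fixed rule are all members, the called genes of 3 lists, Zbtb16, Sox3 and Kit, and the 2 genes most like each member. Itgb1, Adgra3, the catenins, Cd3e, Cd3g and the called genes within 1 Mb of Zbtb16 fall outside it and were chosen after their values were seen. Positions are from GENCODE M21, and promoter sequences from RefSeq (GRCm38.p6). Alternatives were other pseudocounts, filters and scalings, a replicate block, fits of single comparisons and leaving out each library.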

Additional observations from a re-analysis of the deposited data

Results flagged for a closer look

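For 5 members the same contrast had opposite signs in a pair of groups, with no overlap between the libraries compared in either, and these differences were not tested. In the Sox3 set, every cKO library lay on one side of the WT libraries in the labelled THY1+ fraction and on the other side in the labelled KIT+ fraction. The cKO less WT value as labelled THY1+, less the same value as labelled KIT+, was 7.17 for Thy1, 4.10 for Cdh1, 1.91 for Cd9, 2.13 for Mcam and -3.98 for Cd24a on the log2 scale. Between the sets, KIT+ less THY1+ in WT of the Zbtb16 set, less the same as labelled in WT of the Sox3 set, was -6.81 for Thy1, -3.89 for Cdh1, -1.67 for Cd9, -2.23 for Mcam and 3.20 for Cd24a. For Epcam and Ncam1 libraries overlapped in at least 1 of the contrasts of each pair. All 5 genes are those called between the fractions in the cKO libraries, which followed their labels. Both kinds of difference use the WT libraries of the Sox3 set as labelled, whose Thy1 and Kit values go against their labels. They set libraries with high Thy1 against libraries with low Thy1, and Thy1 is itself a gene that showed the conflict. The opposite signs therefore cannot be read as opposite effects of SOX3 loss in the fractions. With 3 libraries a group, single libraries were not tested for standing apart.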

How the results depend on the processing

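The comparisons of fractions kept their direction and call for Thy1, Cdh1, Cd24a and Mcam under every alternative run, and for Cd9 outside the WT libraries of the Sox3 set. Between null and WT in THY1+ uSPG the number of members called was 1, but 0 with a pseudocount of 1, 0 in a fit of the 2 groups alone and 2 with median scaling, and 0 to 2 without single libraries. In the averaged cKO comparison it was 0, but 1 with quantile normalization and 0 to 1 without single libraries. Of single values of members, 43 changed sign, none of them a call.

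The labels do not say whether same-numbered libraries share anything beyond the number. Deviations of same-numbered libraries correlated by 0.4001 in the Zbtb16 set and 0.171 in the Sox3 set on average. Their lowest pairs were at -0.066 and -0.184. Libraries of other groups with a different number averaged -0.200 and -0.085. In these sets 11 of 12 and 9 of 12 libraries were closest to their own number. A replicate block raised the members called in the interaction from 0 to 1, Cd24a (adjusted p 0.0147 in limma), and moved no other number of members called by over 1.5 times.

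Signs changed with quantile normalization for Epcam in null against WT in THY1+ (-0.0538), the interaction (0.00785) and WT labelled KIT+ against labelled THY1+ (0.0089), and for Cdh1 in cKO KIT+ against WT labelled THY1+ (-0.153). With median scaling they changed for Mcam in the interaction (-0.143), Epcam in the averaged comparison (-0.059), and Cdh1 (-0.0902) and Mcam (-0.0367) in cKO KIT+ against WT labelled THY1+. With replicates 2 and 3 alone, an alternative chosen after seeing the data, Epcam changed in cKO against WT as labelled KIT+ (0.054). The cause was not tested. Leaving out single libraries gave values on both sides of 0 where the log2 value was small. In KIT+ against THY1+ in null it ran for Epcam from -0.0471 to 0.166. In null against WT in THY1+ it ran for Thy1 from -0.0594 to 0.178, Cdh1 from -0.125 to 0.227 and Epcam from -0.0724 to 0.0892. In null against WT in KIT+ it ran for Epcam from -0.148 to 0.0645. In the Zbtb16 interaction it ran for Cdh1 from -0.00274 to 0.35, Epcam from -0.165 to 0.048 and Mcam from -0.101 to 0.134. In WT labelled KIT+ against labelled THY1+ it ran for Epcam from -0.192 to 0.122. In cKO against WT as labelled KIT+ it ran for Ncam1 from -0.237 to 0.0966. In the averaged cKO comparison it ran for Epcam from -0.0566 to 0.101. In cKO THY1+ against WT labelled KIT+ it ran for Cd24a from -0.238 to 0.00344. In cKO KIT+ against WT labelled THY1+ it ran for Cdh1 from -0.201 to 0.369 and Mcam from -0.084 to 0.265.

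Depth limits Thy1, which rests on 5 to 32 reads in the low libraries, and the reads of the other members were not estimated. Where a group is left with fewer libraries, its spread is taken from the whole table.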
